A study of Petromyzon marinus with 12 samples.

Results

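The endostyle of the sea lamprey, Petromyzon marinus, was profiled by bulk RNA-seq at stages T27, T28, T29 and T30, and the middle stages T28 and T29 are described here against both end stages, T27 and T30. All 12 libraries of the series entered the comparison, 6 of the middle stages and 6 of the end stages, with 3 libraries at each stage. Every group carried the same genotype label, WT, and the same tissue label, and the stage was the only treatment recorded. The labels did not state how the stages were defined, nor whether the 3 libraries of a stage came from separate animals or pools, and what the p-values below reflect is therefore the scatter among libraries, which may be technical.

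The endostyle is a grooved gland in the floor of the pharynx of larval lampreys, lined by ciliated, mucus-secreting and iodine-binding epithelial zones. At metamorphosis it is remodelled into thyroid follicles, and it is therefore used as a model for the origin of the vertebrate thyroid. Neural crest, named in the title of the study, is a migratory embryonic cell population that gives rise to pigment cells and other derivatives around the pharynx.

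Each library held between 28371140 and 36032488 counts assigned to genes, and no pair of libraries was identical. The first principal component of log2 CPM (counts relative to library size, after scaling by the trimmed mean of M values) took 68.5% of the variance and separated the 3 T30 libraries from all others. The second took 14.3% and separated the 6 middle libraries, which lay between 16.1 and 41.7, from the 6 end libraries, which lay between -45.1 and -14.7. Endostyle markers were present: SLC5A5, the iodide transporter of thyroid cells, was counted in every library, from 5.34 CPM in the lowest T27 library to 119 CPM in the highest T30 library. Only A1CF, of the marker lists for other tissues, had a row but no count in any library.

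The question of the comparison was which genes stood apart in the middle of the series. A contrast of the mean of T28 and T29 minus the mean of T27 and T30, on the log2 scale, is 0 for a gene that moves in a straight line over the 4 stages. It is not 0, however, for a gene that changes at T30 alone. A gene was therefore called a peak only where the middle was above T27 and also above T30, and a dip only where it was below both, each at an adjusted p under 0.05 (edgeR quasi-likelihood test, Benjamini-Hochberg over all genes tested).

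Of 16526 genes tested, 7398 were called in the contrast, which is 44.8%. Of these, 4017 were higher in the middle (24.3% of the genes tested) and 3381 were lower (20.5%). Only 1330 of the called genes were transient by the stricter rule, 8.05% of the genes tested: 707 were peaks (4.28%) and 623 were dips (3.77%). Without T27 replicate 2 the peaks numbered 508 and the dips 379, and under upper quartile scaling the dips outnumbered the peaks, at 675 against 662. The other 6068 called genes owed the call to the ends in other ways. Among the 3310 that were higher without being peaks, 1653 were lower at T30 and not called between T27 and the middle, and 862 fell from T27 to the middle and again to T30. Among the 2758 that were lower without being dips, 1832 were higher at T30 and not called between T27 and the middle.

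**Figure D1:**
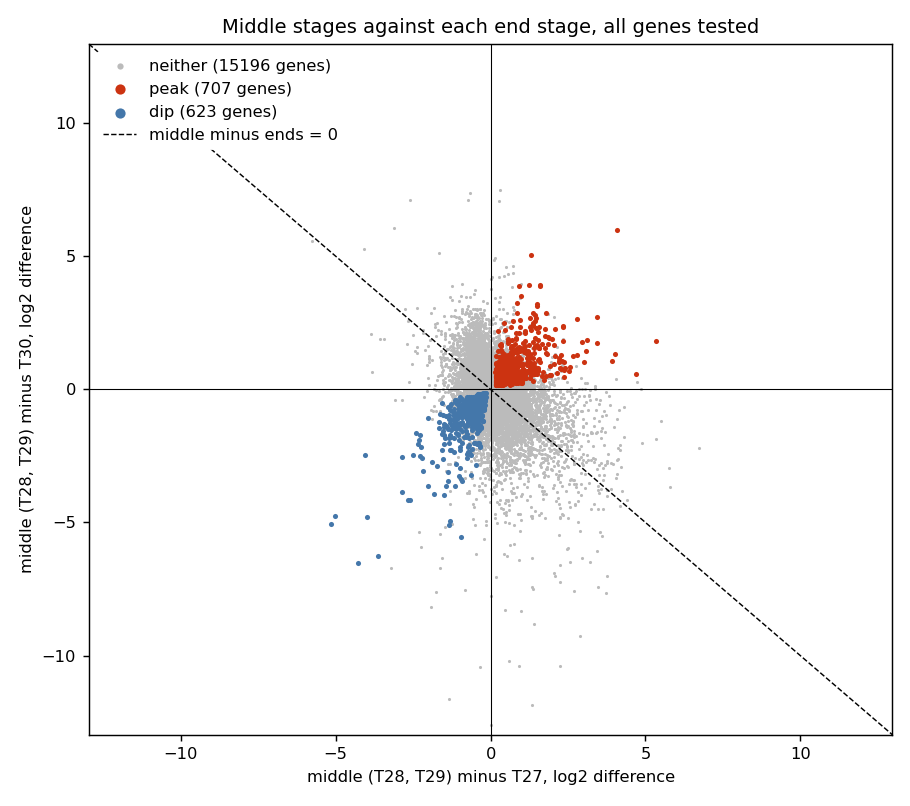
The plot shows the log2 difference of the middle from T27 (horizontal axis) against the log2 difference of the middle from T30 (vertical axis) for each gene tested, with peaks and dips in colour and other genes in grey. The 707 peaks lie in the upper right and the 623 dips in the lower left.

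The transient changes were mostly modest. The smaller of the differences from the ends had a median of 0.42 log2 among peaks (quartiles 0.27 and 0.69) and of 0.41 among dips (quartiles 0.29 and 0.69). Both differences reached 2-fold in 85 peaks and 79 dips. All 6 middle libraries lay above all 6 end libraries in 408 peaks, and below them in 334 dips, while over all genes tested such separation was seen upwards in 451 (2.73%) and downwards in 400 (2.42%). T30 and T27 were not called different in 392 peaks and 411 dips. Whether called or not, the 95% interval of the T30 minus T27 change lay within 0.5 log2 of 0 in 306 of the 707 peaks and 272 of the 623 dips. Over all genes tested, 11376 (68.8%) were called different between T30 and T27, and the share with such an interval was not counted. Of the peaks called different between T30 and T27, 215 ended below T27 and 100 above it, and of such dips 177 ended above T27 and 35 below. The T29 mean was further from the ends than the T28 mean in 531 of 707 peaks and 473 of 623 dips. T29 was called above T28 in 117 peaks and below it in 23, where 2215 of all genes tested (13.4%) differed between these stages.

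Dips had a greater annotated exon length per gene than peaks, with a median of 4181 bp against 2889 bp in peaks and 3166 bp over all genes tested. They also had lower levels, with a median of 14.3 CPM against 35.8 CPM in peaks and 18.6 CPM over all genes. In the fifth of genes with the longest exons 7.05% were dips and 2.995% were peaks, while in the fifth with the shortest 2.90% were dips and 4.74% were peaks. The part of exon length in any single call was not tested.

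Genes of the centriole and basal body made up a group of peaks. Centrioles organise the centrosome of dividing cells and, docked at the membrane, serve as the basal bodies from which cilia grow. CEP128, a protein of the subdistal appendages of the mother centriole, rose about 3-fold and then fell back, and NEK2, a kinase of the centrosome cycle, ODF2, which builds the appendages, and TBC1D31, a centriolar satellite protein, moved the same way. All 4 came out among the 15 separated peaks with a gene symbol that changed most. No overlap of middle and end libraries was a condition for entering these 15.

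CEP128 (kPetMar1 sequence NC_046099.1, 5174680 to 5190650, minus strand) was counted at 87.1, 66.6 and 62 CPM in the T27 libraries, at 232, 233 and 217 CPM at T28, at 199, 232 and 246 CPM at T29 and at 65.1, 68.6 and 75 CPM at T30. Every middle library was thus more than double every end library, and the ends overlapped each other. The middle was 3.15-fold above T27 (log2 1.65, SE 0.11, edgeR adjusted p = 2.11e-07) and 3.26-fold above T30 (log2 1.70, SE 0.11, adjusted p = 3.88e-09), and the T30 minus T27 change had a 95% interval of -0.29 to 0.20 log2.

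NEK2 (NC_046099.1, 7764582 to 7776814, plus strand) was counted at 61.6, 45.8 and 49.3 CPM at T27, at 144, 137 and 126 CPM at T28, at 99, 115 and 142 CPM at T29 and at 20.8, 24.8 and 28.8 CPM at T30. The middle libraries lay above all others, and T30 lay below T27 by 1.08 log2 (95% interval -1.39 to -0.77). The middle was 2.43-fold above T27 (edgeR adjusted p = 3.49e-06) and 5.12-fold above T30 (adjusted p = 2.00e-09). Exons of NEK2 overlap an uncharacterised locus, and since no strand setting for the counting was given, reads of the pair cannot be told apart.

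ODF2 had T27 libraries at 59.3, 49.3 and 50.9 CPM, T28 libraries at 114, 114 and 97.1 CPM, T29 libraries at 99.7, 130.3 and 142 CPM and T30 libraries at 39.6, 43.3 and 40.8 CPM. Its middle was 2.18-fold above T27 (edgeR adjusted p = 2.07e-06) and 2.81-fold above T30 (adjusted p = 1.99e-08). For TBC1D31 the corresponding folds were 2.05 and 3.35 (adjusted p = 4.90e-06 and 6.17e-09). Both genes were picked among peaks in which no middle library overlapped an end library.

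After these values had been seen, a list of 71 tested genes of the centriole, centrosome and basal body was drawn up to describe the group; since CEP128 and the others prompted it, its count is a description. It held 30 peaks and 1 dip, against 4.28% and 3.77% of all genes tested, and leaving out any one library gave between 25 and 32 peaks. In 22 of the 71 genes every middle library lay above every end library, against 2.73% of all genes tested. The genes that prompted the list had been picked for that separation. The peaks included POC5, POC1A, CETN3, SSNA1, TUBE1, RTTN, C2CD3 and HYLS1 of the centriole itself, CEP83 and SCLT1 of the distal appendages that dock it to the membrane, and CEP152 and CEP120, which take part in making new centrioles. CEP152 had means of 39.4 CPM at T27, 75.6 CPM at T28, 54.8 CPM at T29 and 29.3 CPM at T30. Of the 24 genes tested whose symbol is CEP and a number, 11 were peaks and 0 were dips. The T29 mean was above the T28 mean in only 7 of the 30 centriole peaks, against 531 of all 707 peaks, and T30 was called below T27 in 21, above it in 4 and neither in 5. The summed level of the list ran from 2907 to 3116 CPM at T27, 3976 to 4129 CPM at T28, 3562 to 3994 CPM at T29 and 2904 to 3180 CPM at T30.

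The genes of the list that did not peak followed other courses. The dip was TEDC2, a partner of delta and epsilon tubulin, whose level was 1.27-fold higher at T27 and 1.4-fold higher at T30 than in the middle (edgeR adjusted p = 0.00764 and 0.000248). AKAP9, CCDC66, CCP110, CEP164 and CEP290 were lower in the contrast without being dips. CCP110, which caps the centriole and blocks cilium growth, rose from a mean of 35.7 CPM at T27 to 51.3 and 49.1 CPM in the middle and then to 101 CPM at T30.

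**Figure D2:**
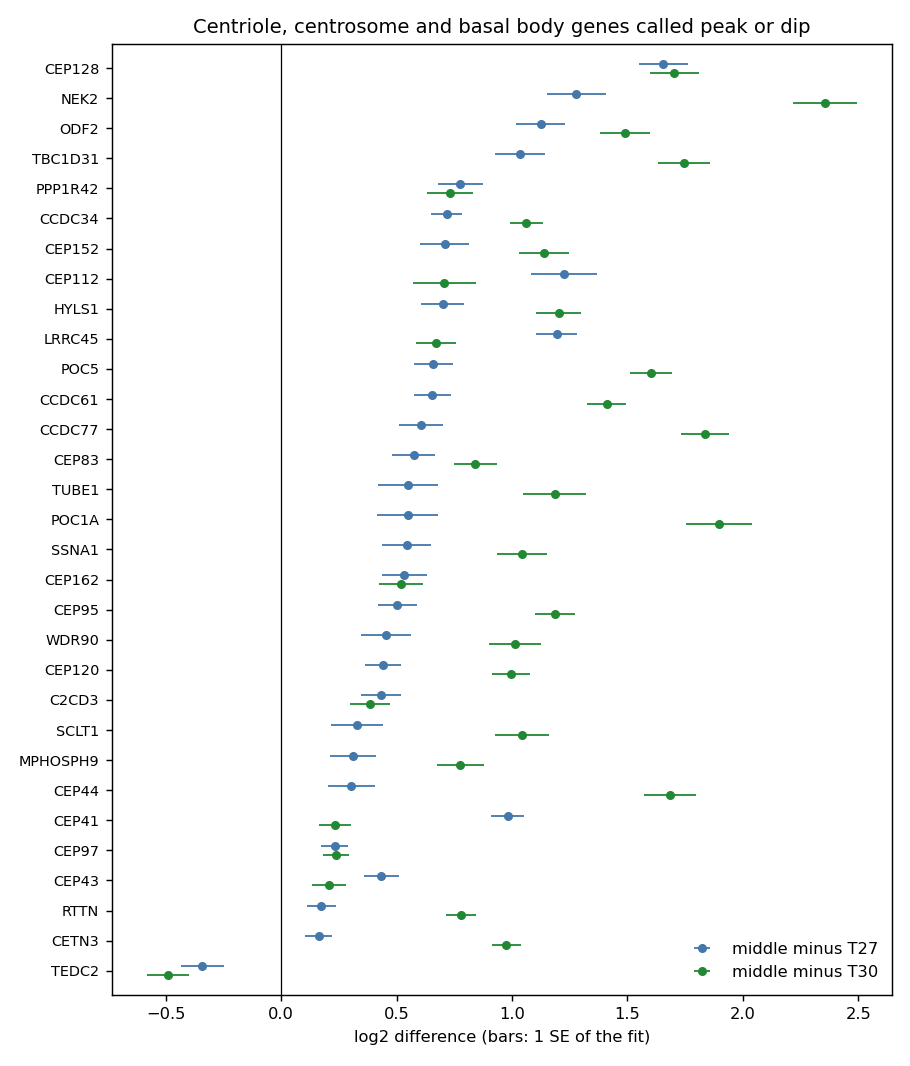
Log2 differences of the middle from T27 and from T30, each with bars of 1 SE, are plotted for the 30 peaks of the centriole list and for its dip TEDC2. Both differences lie above 0 for each peak, and for 21 of them T30 was also called below T27.

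Among genes of the cilium proper a smaller number peaked. A list of intraflagellar transport and transition zone genes, also drawn up after values had been seen, held 8 peaks and 1 dip among 54 tested. These were 14.8% and 1.85%, against 4.28% and 3.77% of all genes tested. IFT22, IFT27 and B9D1, which act in transport along the cilium or at its base, had the largest differences of the peaks. IFT22 was at 39.1, 32.6 and 45.8 CPM at T27, at 51.8, 51.9 and 51.6 CPM at T28, at 57.6, 59 and 66.1 CPM at T29 and at 32.7, 39.5 and 42 CPM at T30, 1.43-fold and 1.48-fold higher in the middle (edgeR adjusted p = 0.00091 and 0.000213). The IFT27 call above T27 was lost without T27 replicate 2 (adjusted p = 0.0618), and the list then held 5 peaks. The motile cilia list of axonemal dyneins, assembly factors and CFAP proteins held 7 peaks (9.46%, against 4.28% of all genes tested) and 0 dips among 74. In the contrast 33 of its genes were higher (44.6%) and 8 lower (10.8%), against 24.3% and 20.5% of all genes tested. Its median was 0.76 log2 above T27 and 0.40 log2 below T30, and its summed level was higher at each later stage, from 2435 to 3080 CPM at T27 to 6166 to 6914 CPM at T30.

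DNAAF6, which helps to assemble dynein arms, was the peak with the largest differences in that list, with 49.2, 32.4 and 41.1 CPM at T27, 92.3, 85.6 and 96.7 CPM at T28, 136, 149.5 and 143 CPM at T29 and 68.2, 84 and 78.5 CPM at T30. Its T27 libraries were the lowest and its T29 libraries the highest, and its middle was 2.79-fold above T27 and 1.49-fold above T30 (edgeR adjusted p = 4.64e-07 and 0.000247). The count of 7 fell to 4 without T28 replicate 1 or T29 replicate 2, to 3 without T30 replicate 1 and to 4 under upper quartile scaling. In those runs the share was near the 4.28% of all genes tested. The difference between the centriole and the motile cilia lists was not tested.

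Nuclear genes of the mitochondrial respiratory chain were higher in the middle by a small amount, and most of them were peaks. The chain passes electrons from complexes I and II through III to IV, and ATP synthase uses the resulting proton gradient. Of 58 nuclear genes tested, 50 were higher in the contrast (86.2%, against 24.3% of all genes tested) and 0 lower. The median was 0.34 log2 against 0.01 over all genes. The list held 38 peaks (65.5%, against 4.28% of all genes tested) and 0 dips. By complex, peaks numbered 22 of 34 genes in complex I, 1 of 3 in II, 4 of 6 in III, 5 of 6 in IV and 6 of 9 in ATP synthase. The middle was above both ends, called or not, in 56 of the 58, and the share of such genes over all genes tested was not counted.

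The differences of the 38 peaks were small, between 0.18 and 0.41 log2 for the smaller one. In 15 of the 58 genes all 6 middle libraries lay above all 6 end libraries, against 2.73% of all genes tested. COX4I1, a subunit of complex IV, was at 475, 443 and 524 CPM at T27, at 630.1, 559 and 599 CPM at T28, at 715, 621 and 709.8 CPM at T29 and at 457, 517 and 440.2 CPM at T30. The ends overlapped each other and lay below the middle libraries, which were 1.33-fold above T27 and 1.35-fold above T30 (edgeR adjusted p = 0.00106 and 0.000285). NDUFS5 of complex I was 1.33-fold and 1.55-fold higher in the middle (adjusted p = 0.00235 and 2.78e-05), and CYC1 of complex III 1.28-fold and 1.36-fold (adjusted p = 0.00253 and 0.000205). In all 38 the T29 mean was above the T28 mean, and T30 was called above T27 in 1 and below it in 10.

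The number of respiratory peaks rested on the T27 libraries. Without T27 replicate 1 it was 20, without T27 replicate 2 it was 11 and without T27 replicate 3 it was 44, and leaving out any other library gave 27 to 40. The genes higher in the contrast then numbered between 48 and 53. The summed level was 9058, 8491 and 10111 CPM in the T27 libraries, 10025 to 10415 CPM at T28, 11031 to 12553 CPM at T29 and 7953 to 8948 CPM at T30, so that T27 replicate 3 overlapped the T28 libraries. Muscle markers, of cells rich in mitochondria, moved in part with these genes: the 16 tested held 0 peaks and summed to 251 to 314 CPM at T27, 327 to 519 CPM at T28, 675 to 863 CPM at T29 and 964 to 1628 CPM at T30. The muscle sum was thus highest at T30, and the part of muscle cells in the respiratory result was not tested. As in any bulk sample, fewer cells of a type and less RNA per cell cannot be told apart.

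The 13 protein genes of the mitochondrial genome, whose products join the same complexes, held 0 peaks and 0 dips, and 0 were called in the contrast by edgeR at an adjusted p under 0.05, with a median of 0.02 log2. Leaving out any one library gave 0 to 1 peaks, 0 dips, 0 to 3 genes higher and 0 to 2 lower. With all libraries kept, 1 was higher and 2 were lower at an unadjusted p under 0.05. At the adjusted threshold limma called 0 and DESeq2 called 1, which was lower. Their summed level ran from 15911 to 16372 CPM at T27, 16591 to 19738 CPM at T28, 17177 to 21934 CPM at T29 and 17619 to 24147 CPM at T30. COX1, the catalytic core of complex IV, had means of 4121 CPM at T27, 4799.8 CPM at T28, 5159 CPM at T29 and 5828 CPM at T30. The mitochondrial ribosome, built from nuclear genes, resembled the respiratory genes in the contrast. Of its 74 genes 68 were higher (91.9%, against 24.3% of all genes tested) and 0 lower, with a median of 0.34 log2. Only 8 of these genes were peaks, however (10.8%, against 4.28% of all genes tested), since the median was 0.04 log2 above T27 and 0.63 log2 above T30. MRPS30 was the most secure of them, 1.33-fold above T27 and 1.38-fold above T30 (edgeR adjusted p = 0.00081 and 0.000124), whereas MRPS6 was no longer called without T27 replicate 2 or 3 and the list held 4 peaks without T27 replicate 1 and 3 without T27 replicate 2.

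**Figure D3:**
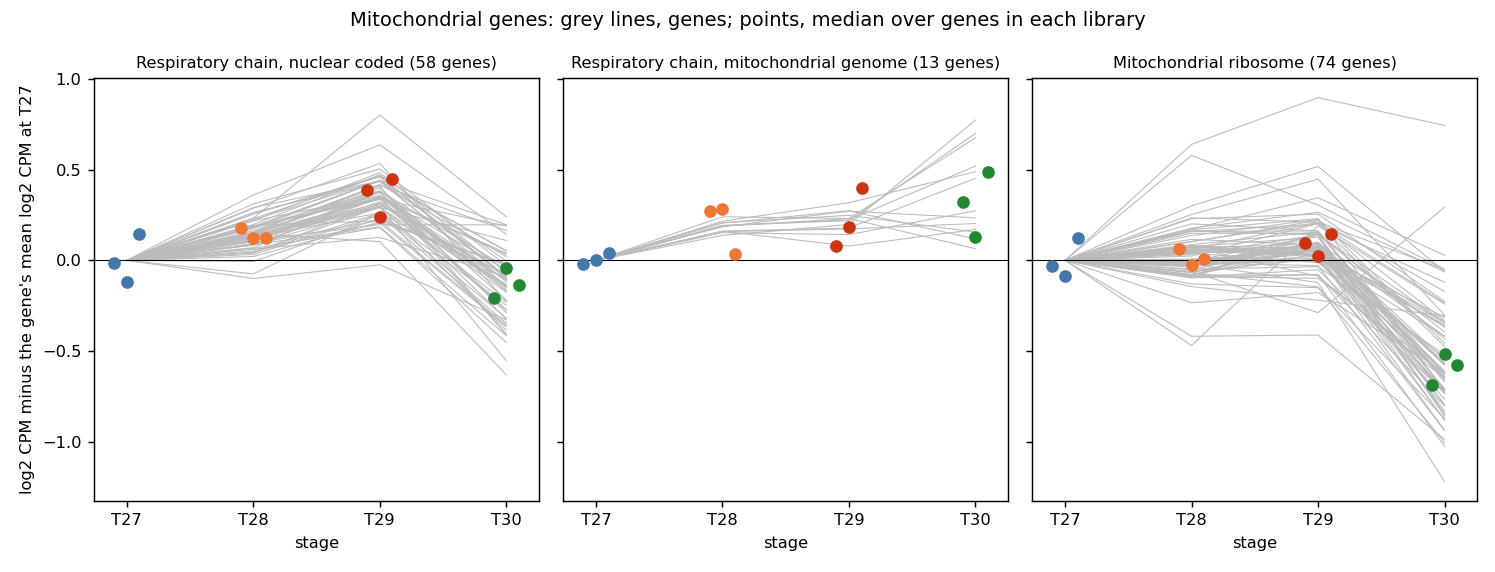
Each panel shows one mitochondrial list, the 58 nuclear respiratory genes, the 13 genes of the mitochondrial genome and the 74 mitochondrial ribosome genes, by stage. Grey lines are stage means of single genes in log2 CPM minus their T27 mean and points are the median over genes in each library; the respiratory genes are highest at T29 and drop at T30, while the mitochondrial genome does not drop.

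Related metabolic and secretory lists held smaller shares of peaks, to be read against the 24.3% higher, 20.5% lower and 4.28% peaks among all genes tested. Of 25 genes of glycolysis and the citric acid cycle, 15 were higher in the contrast, 3 lower, 4 were peaks and 1 was a dip. FH, the fumarase of the cycle, was 1.26-fold above T27 and 1.44-fold above T30 in the middle (edgeR adjusted p = 0.000962 and 6.36e-06). DLD, a subunit shared by several dehydrogenases, was 1.18-fold and 1.26-fold higher (adjusted p = 0.00974 and 0.000606). Pyruvate carboxylase, PC, was the dip, and its call was lost without T27 replicate 2 (adjusted p = 0.0876). Without T27 replicate 1 or without T27 replicate 2 the list held 2 peaks. Of 46 lysosome and proton pump genes 4 were peaks (8.70%), all subunits of the V-ATPase that acidifies lysosomes: ATP6V0C, ATP6V0B, ATP6V1D and ATP6V1F. ATP6V0C was at 548, 514 and 569 CPM at T27, 654, 666 and 661 CPM at T28, 829.8, 712 and 802 CPM at T29 and 500.0, 579 and 479.5 CPM at T30, 1.32-fold and 1.38-fold higher in the middle (adjusted p = 0.000759 and 9.09e-05). Of 56 genes of folding and export from the endoplasmic reticulum 6 were peaks (10.7%), among them the chaperone DNAJB11, at 1.39-fold and 1.35-fold (adjusted p = 0.000807 and 0.000745), and the list held 3 without T30 replicate 1, a share close to that of all genes.

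**Figure D4:**
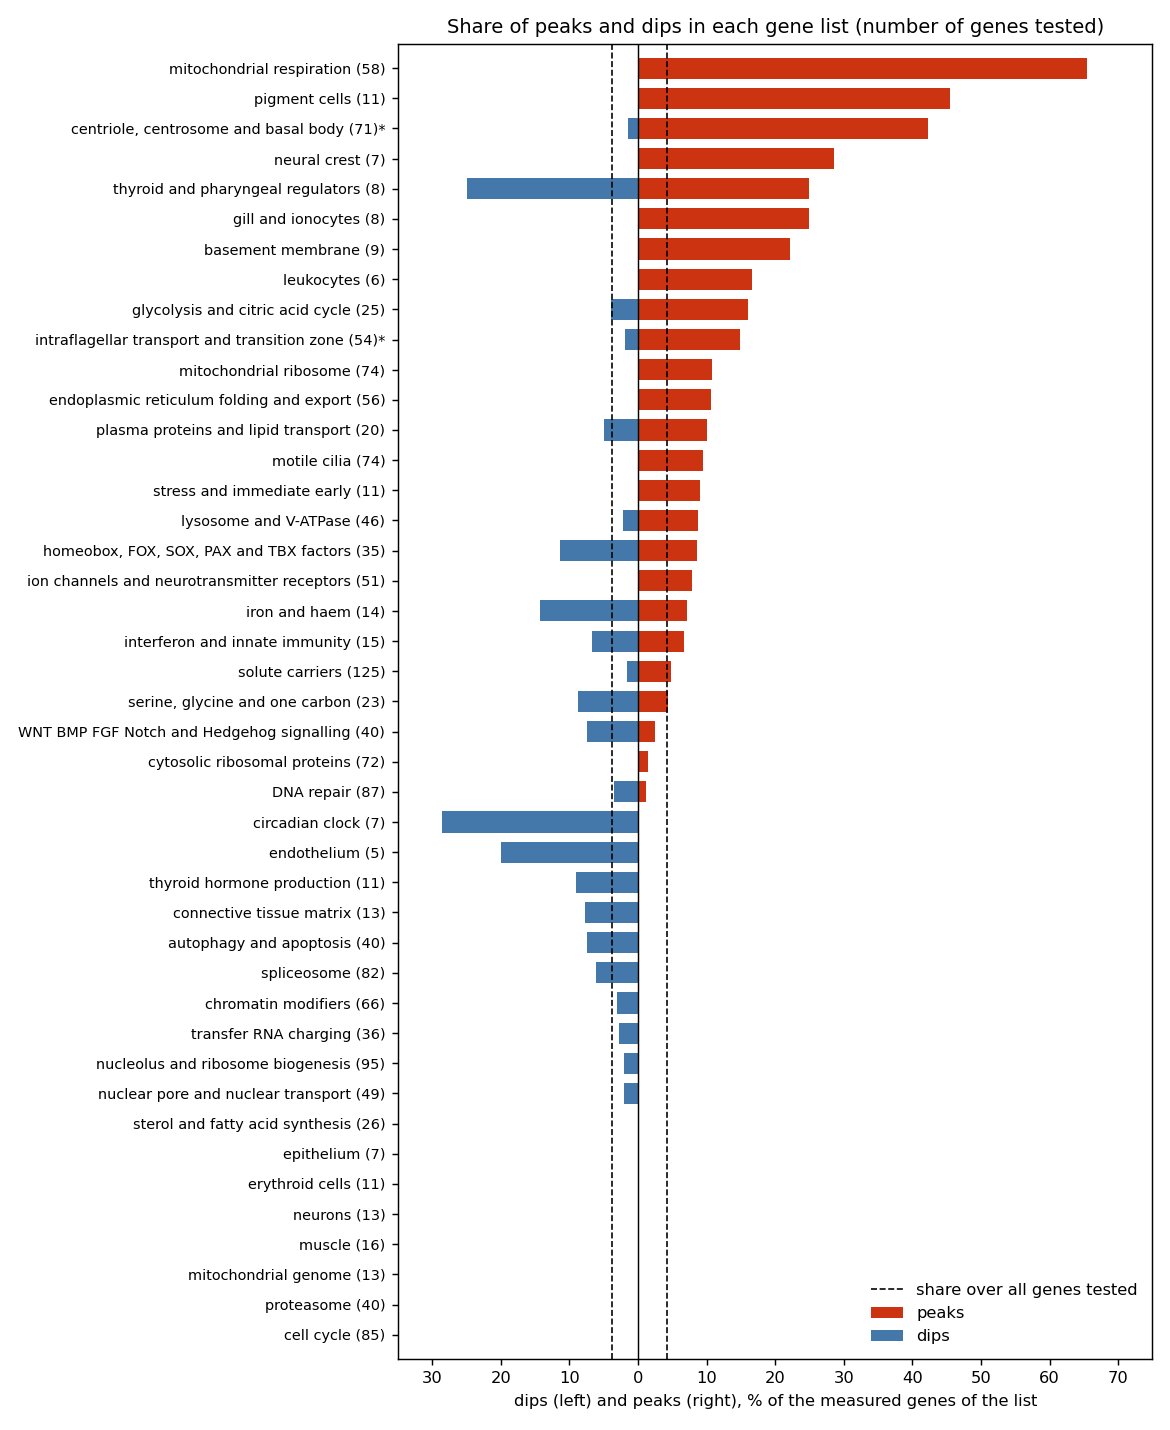
Horizontal bars give the percentage of peaks and of dips in each gene list with at least 5 genes tested, with vertical lines at the 4.28% and 3.77% of all genes tested, and an asterisk marks lists drawn up after values were seen. The respiratory, pigment and centriole lists stand furthest above the line for peaks.

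A few pigment cell genes of low level were steep peaks. Melanin is made in melanocytes, which derive from the neural crest, by tyrosinase and related enzymes on a scaffold of the PMEL protein. Of 11 pigment genes tested, 8 were higher in the contrast (72.7%, against 24.3% of all genes tested) and 0 lower, with a median of 2.01 log2. The list held 5 peaks (45.5%, against 4.28% of all genes tested) and 0 dips. The middle was above both ends, called or not, in 7 of the 11, and the share of such genes over all genes tested was not counted. T30 was called above T27 in all 5 peaks, so that these fell back only in part. The summed level of the list did not follow them: it ran from 87.1 to 97.2 CPM at T27, 92.4 to 98.6 CPM at T28, 109 to 119 CPM at T29 and 56.5 to 59.5 CPM at T30. Most of that sum was RAB27A, a vesicle transport GTPase also used outside pigment cells, with means of 74.6, 61.4, 70.6 and 30.4 CPM.

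PMEL was at 1.27, 1.02 and 0.635 CPM at T27, at 6.43, 7.02 and 5.15 CPM at T28, at 10.5, 10.8 and 8.87 CPM at T29 and at 4.23, 3.87 and 3.58 CPM at T30. No libraries of different stages overlapped, and the order was T27, T30, T28 and T29. The middle was 8.03-fold above T27 (log2 3.01, SE 0.20, edgeR adjusted p = 2.48e-07) and 2.03-fold above T30 (log2 1.02, SE 0.17, adjusted p = 9.63e-05). TYR, tyrosinase itself, was at 0.211, 0.186 and 0.267 CPM at T27, at 1.15, 1.05 and 1.6 CPM at T28, at 1.46, 2.35 and 1.8 CPM at T29 and at 0.62, 0.465 and 0.799 CPM at T30 (6.87-fold and 2.46-fold). TYRP1, a melanin enzyme related to it, was at 0.121, 0 and 0 CPM at T27, at 1.47, 1.75 and 1.57 CPM at T28, at 1.76, 2.52 and 2.02 CPM at T29 and at 0.593, 0.713 and 0.209 CPM at T30. TYR and TYRP1 had no overlap between middle and end libraries, which was a condition for their place among the 15 separated peaks. The melanosome glycoprotein GPNMB and the melanosome transporter SLC45A2 were also peaks; the SLC45A2 call above T30 was lost in 6 of the 12 leave-one-out fits, with adjusted p from 0.0517 to 0.152. DCT, another melanin enzyme, whose exons overlap an uncharacterised locus, was the gene with a symbol that was highest in the contrast without being a peak (2.50 log2): it rose from a mean of 0.225 CPM at T27 to 5.26 and 7.24 CPM in the middle, and T30 at 5.11 CPM was not called different from the middle (adjusted p = 0.237).

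EDNRB (locus LOC116943497), an endothelin receptor that crest-derived pigment cells need, peaked with them. It was at 0.965, 1.49 and 1.1 CPM at T27, at 6.11, 4.63 and 4.38 CPM at T28, at 8.09, 7.19 and 7.26 CPM at T29 and at 2.88, 3.38 and 2.71 CPM at T30. The stages did not overlap, and the middle was 5.17-fold above T27 and 2.06-fold above T30 (edgeR adjusted p = 6.05e-07 and 6.40e-05). Separation of middle from end libraries was a condition for its place among the 15 separated peaks. Of the 7 neural crest genes tested, 6 were higher in the contrast (85.7%, against 24.3% of all genes tested). Peaks numbered 2, EDNRB among them (28.6%, against 4.28% of all genes tested). ALX1, TWIST2, RET and PAX7 were higher in the contrast without being peaks: each was called lower at T30 than in the middle, and none was called lower at T27. ALX1, a mesenchyme factor, fell from T27 to the middle and again to T30, with means of 7.31, 4.9, 4.25 and 1.12 CPM.

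Other separated peaks with a large change had diverse roles. SVOP, a synaptic vesicle protein in mammals, was at 13.1, 8.26 and 8.35 CPM at T27, at 19.9, 22.3 and 20.9 CPM at T28, at 29.3, 29.3 and 35.8 CPM at T29 and at 4.69, 4.03 and 4.87 CPM at T30. T29 was highest and T30 lowest, with no overlap between stages, and the middle was 2.6-fold above T27 and 5.68-fold above T30 (edgeR adjusted p = 5.78e-06 and 5.17e-09). SOD3, the secreted superoxide dismutase, was at 4.52, 2.36 and 2.57 CPM at T27, at 11.1, 9.97 and 11.4 CPM at T28, at 9.33, 13.1 and 12.2 CPM at T29 and at 4.55, 4.12 and 4.8 CPM at T30 (3.53-fold and 2.49-fold, adjusted p = 6.43e-06 and 2.24e-05). Here the ends overlapped each other and the middle stages overlapped each other. Germ line genes of other animals were among the 15, TDRD1 (LOC116941464), a tudor protein of piRNA granules, at 2.43-fold and 2.51-fold, and HSF2BP, a recombination factor, at 2.92-fold and 2.16-fold. The remaining ones were PRR16, PRIMA1, which anchors acetylcholinesterase, the anoctamin ANO7 and ISLR2, all with mean levels under 3 CPM at every stage.

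TFCP2L1, an epithelial transcription factor on the gill and ionocyte list, was 1.61-fold above T27 and 1.95-fold above T30 in the middle (edgeR adjusted p = 0.00486 and 0.000196). Of the 8 genes tested on that list, 5 were higher in the contrast (62.5%, against 24.3% of all genes tested). Peaks numbered 2 (25%, against 4.28% of all genes tested) and dips 0. BSND, a chloride channel subunit, was higher in the contrast without being a peak, at 0.67 log2 (edgeR adjusted p = 0.00282). Its middle was called above T27 (0.97 log2, adjusted p = 0.00114) and not called against T30 (adjusted p = 0.095). The 1 lower gene was CFTR, a chloride channel of ionocytes, at -1.08 log2 (adjusted p = 0.00386), through its level at T30. Among 51 channels and receptors 4 were peaks (7.84%, against 4.28% of all genes tested). They were DRD2, ANO7, AQP4 and TRPA1, whose exons overlap an uncharacterised locus. AQP4, a water channel, was at 34.2, 33.9 and 31.7 CPM at T27, at 40.5, 46 and 48.1 CPM at T28, at 44.3, 45.2 and 43.1 CPM at T29 and at 30.4, 34.5 and 23 CPM at T30, and no middle library overlapped an end library. Of 9 basement membrane genes 2 were peaks (22.2%, against 4.28% of all genes tested). They were FRAS1 at 1.31-fold and 1.66-fold (adjusted p = 0.00119 and 1.64e-06) and the collagen COL4A6 at 1.24-fold and 1.26-fold (adjusted p = 0.00378 and 0.00108).

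**Figure D5:**
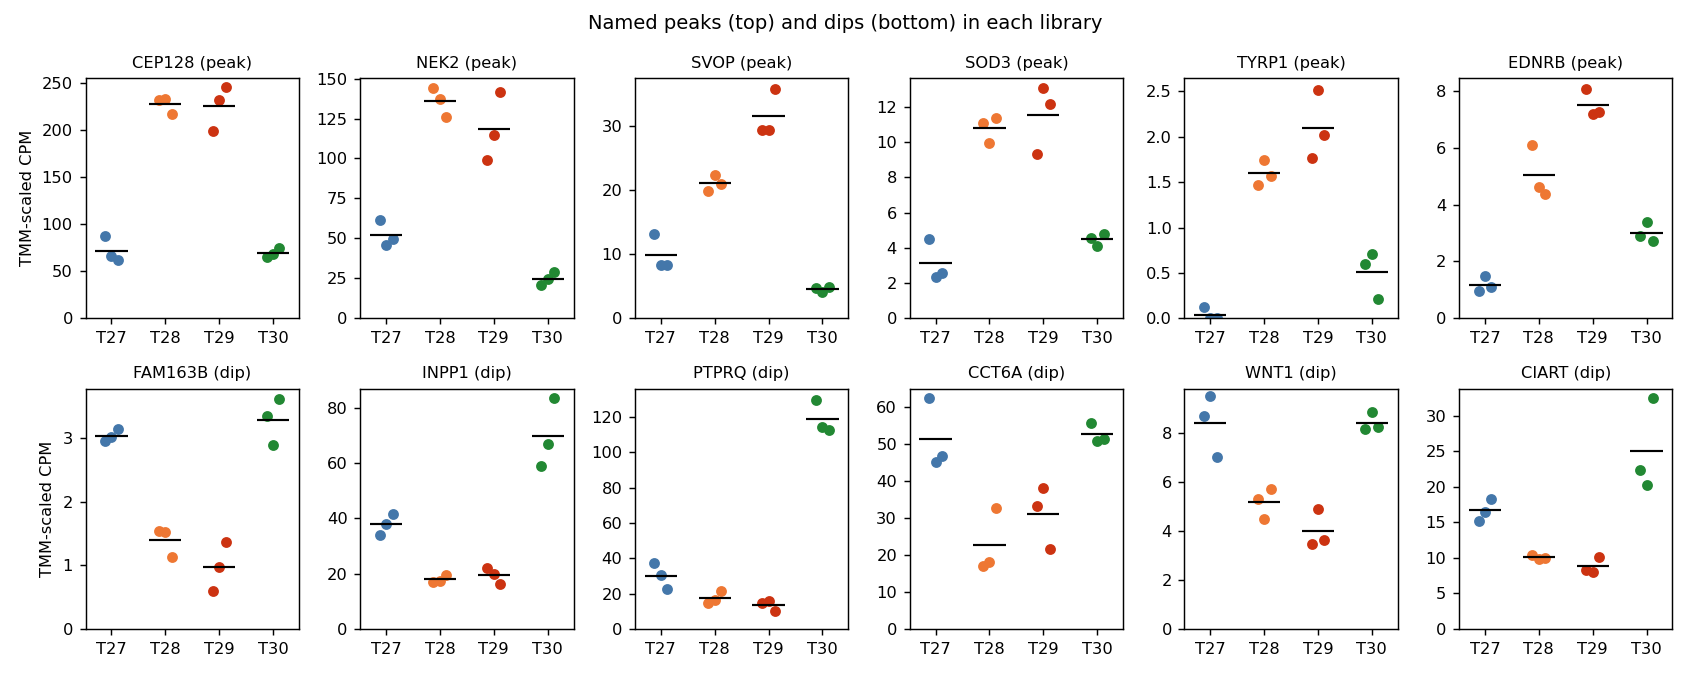
CPM of 6 peaks (CEP128, NEK2, SVOP, SOD3, TYRP1, EDNRB) and 6 dips (FAM163B, INPP1, PTPRQ, CCT6A, WNT1, CIART) is plotted by stage, each panel on its own axis. Points are libraries, 3 for each stage, and short horizontal bars mark stage means. The genes were picked among those whose 6 middle libraries lie on one side of the 6 end libraries.

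A few genes met the rule for a peak through T28 alone. HPX, a haem-binding plasma protein, was at 76, 77.6 and 73.8 CPM at T28 and at 26, 27.9 and 26.6 CPM at T29, against 27.7, 17.4 and 12.9 CPM at T27 and 20.9, 22.5 and 21.2 CPM at T30. The T29 libraries overlapped those of T27. DRD2, a dopamine receptor, likewise fell by 1.45 log2 from T28 to T29 (edgeR adjusted p = 0.00514), and its T29 libraries also overlapped those of T27. When T28 and T29 were each required to pass against both ends, 267 peaks and 174 dips were left.

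Among the dips the signalling ligand WNT1 was the most symmetrical of the named genes. WNT1 directs cell fate at the midbrain border and in other tissues of vertebrate embryos. It was at 8.66, 9.47 and 7.02 CPM at T27, at 5.31, 4.49 and 5.71 CPM at T28, at 3.47, 4.87 and 3.63 CPM at T29 and at 8.16, 8.83 and 8.24 CPM at T30. The middle libraries lay below all end libraries, which was a condition for entering the 15 named dips. Compared with the middle, T27 was 1.84-fold higher and T30 1.85-fold higher (edgeR adjusted p = 0.000164 and 5.78e-05), and the T30 minus T27 change was 0.00 log2, with a 95% interval of -0.34 to 0.35. Of 40 genes of the WNT, BMP, FGF, Notch and Hedgehog pathways, 11 were higher in the contrast (27.5%) and 10 lower (25%). These shares were near the 24.3% and 20.5% of all genes tested. The list held 1 peak (2.5%) and 3 dips (7.5%), against 4.28% and 3.77% of all genes tested. FGF3 was a further dip, and the peak was FGF10, whose exons overlap those of another gene. FGF3 lost its call in 8 of 12 leave-one-out fits, with adjusted p up to 0.255 without T27 replicate 2, and FGF10 in 9, with adjusted p up to 0.158.

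The dip with the largest separated change among genes with a symbol was FAM163B (LOC116953242), a gene of little known function, at 2.96, 3.01 and 3.14 CPM at T27, 1.54, 1.52 and 1.12 CPM at T28, 0.588, 0.979 and 1.36 CPM at T29 and 3.34, 2.88 and 3.61 CPM at T30. The ends overlapped, and they were 2.61-fold and 2.82-fold above the middle (edgeR adjusted p = 0.000107 and 1.65e-05). CCT6A, a subunit of the cytosolic chaperonin, behaved in the same way, with ends 1.94-fold and 1.99-fold above the middle (adjusted p = 0.00102 and 0.000357), though its middle libraries ranged from 17.1 to 38.1 CPM. PCBD1, which recycles the pterin cofactor of phenylalanine hydroxylase, had ends 1.88-fold and 2.06-fold above the middle (adjusted p = 3.05e-05 and 2.10e-06). PCSK2, a prohormone convertase, was higher at T27 by 2.02-fold and at T30 by 1.66-fold (adjusted p = 4.87e-06 and 2.96e-05).

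In other dips T30 far exceeded T27. PTPRQ, a phosphatase of hair cell bundles in mammals, was at 37.5, 30.7 and 22.5 CPM at T27, at 14.7, 16.5 and 21.2 CPM at T28, at 14.5, 15.8 and 9.94 CPM at T29 and at 129.9, 115 and 113 CPM at T30. T27 lay just above the middle libraries and T30 far above all (1.98-fold and 7.77-fold, edgeR adjusted p = 0.000178 and 5.44e-10). INPP1, an inositol phosphatase, was at 34.1, 38.1 and 41.6 CPM at T27, at 17, 17.5 and 19.6 CPM at T28, at 22, 19.98 and 16.3 CPM at T29 and at 59.1, 67 and 83.5 CPM at T30 (2.03-fold and 3.73-fold, adjusted p = 8.15e-06 and 1.94e-09). Its exons overlap an uncharacterised locus, as those of SOHLH2 (LOC116942903), a dip of 1.88-fold and 2.99-fold, overlap BBS7. GPR22, an orphan receptor, was 2.24-fold and 12.5-fold above the middle at the ends, and THSD7A (LOC116940859) 1.68-fold and 5.34-fold; the THSD7A call against T27 was lost in 5 of 12 leave-one-out fits, with adjusted p from 0.0541 to 0.0962. OPLAH, an enzyme of glutathione turnover, had ends 1.8-fold and 2.52-fold above the middle, and for C77H11orf54 these were 1.7-fold and 3.17-fold. In PCARE, a photoreceptor cilium protein in mammals, the ends were 1.91-fold and 2.32-fold above the middle and not called different from each other.

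Of the 7 clock genes tested 2 were dips (28.6%, against 3.77% of all genes tested) and 0 were peaks. CIART, a repressor of the mammalian circadian clock, was at 15.2, 16.5 and 18.3 CPM at T27, at 10.4, 9.82 and 9.94 CPM at T28, at 8.32, 8.03 and 10.2 CPM at T29 and at 22.4, 20.2 and 32.5 CPM at T30. Its ends were 1.77-fold and 2.65-fold above the middle (edgeR adjusted p = 0.000242 and 3.54e-07). ASMT, the last enzyme of melatonin synthesis, had ends 1.64-fold and 2.37-fold above the middle, and its call was lost without T27 replicate 1 (adjusted p = 0.0654). PER1 of the clock list was neither a peak nor a dip, and its means rose from 3.21 CPM at T27 to 6.45 and 7.59 CPM in the middle and 26.3 CPM at T30. The time of day of collection was not given in the labels.

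Genes of the endostyle itself moved in both directions. PAX1, a factor of the pharyngeal pouches, was a peak, at 6.33, 6.77 and 7.55 CPM at T27, 14.4, 16.7 and 13.5 CPM at T28, 21.5, 20.4 and 15.1 CPM at T29 and 9.99, 9.79 and 10.9 CPM at T30. Its middle was 2.44-fold above T27 and 1.65-fold above T30 (edgeR adjusted p = 3.91e-06 and 0.000152), and T30 lay between T27 and the middle. PAX2, a thyroid and kidney factor, was a dip, at 83.4, 73.6 and 71.2 CPM at T27, 63.3, 70.5 and 64.3 CPM at T28, 45.8, 48.3 and 43 CPM at T29 and 131, 126 and 116 CPM at T30. Its decline ran through T28 to T29 (T29 minus T28 -0.53 log2, adjusted p = 0.000984) before the rise at T30, and the ends were 1.38-fold and 2.26-fold above the middle (adjusted p = 8.40e-05 and 1.53e-09). HHEX, required for the thyroid in mammals, was a weak dip that was lost in 6 of 12 leave-one-out fits (adjusted p from 0.0502 to 0.112), and the GATA3 peak (LOC116947550) was lost without T30 replicate 3 (adjusted p = 0.0661). PROX1, an endoderm and lymphatic factor on the homeobox list, was a peak at 64.6, 85.2, 81.6 and 63.5 CPM. SOX2, PAX9, ISL1 and FOXA2 were neither.

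Of the 11 thyroid hormone genes tested, 0 were peaks, 1 was a dip, 1 was higher in the contrast and 5 were lower, against 20.5% lower over all genes tested. The median of the list was 0.05 log2 above T27 and 1.15 log2 below T30. The lower ones included the iodide transporter SLC5A5, with means of 5.93, 9.23, 15.2 and 106 CPM, and the deiodinase IYD, with 40.6, 43, 40.9 and 93.3 CPM, which were both high at T30. CRYM was lower against T27 (-0.46 log2, edgeR adjusted p = 0.017) and not called against T30. The dip was SLC5A8 (LOC116956498), a monocarboxylate transporter, with means of 3.57, 2.64, 2.23 and 5.53 CPM, whose call against T27 was lost without T27 replicate 3 (edgeR adjusted p = 0.0805).

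Genes of the cell cycle list made the contrast but not the peaks. NEK2, the centrosome kinase described above as a peak, is not on that list. Of 85 cell cycle genes tested, 75 were higher in the contrast (88.2%, against 24.3% of all genes tested) and 2 lower, RFC1 and WEE1. The median of the list was 0.60 log2, yet 0 were peaks and 0 dips. That count of 0 also held in every alternative run, DESeq2 and limma included. Their median was 0.53 log2 below T27 and 1.77 log2 above T30: their summed level was lower at each later stage, from 8536 to 9379 CPM at T27 to 6819 to 7202 CPM at T28, 5300 to 5612 CPM at T29 and 1729 to 1975 CPM at T30. SHCBP1, a midbody protein outside the list, was also higher in the contrast without being a peak. Its means of 21.9, 24.4, 21.3 and 3.6 CPM were low at T30 alone. The summed level of the centriole list, drawn up after values were seen, was higher at T28 than at T27. Some genes of that list also serve cell division, and the part of cell division in its rise was not tested. Proteasome genes, like those of the cell cycle, were mostly higher in the contrast, in 32 of 40 (80%, against 24.3% of all genes tested). They were lower in 4, with 0 peaks and 0 dips. Serine, glycine and one-carbon genes were lower in 16 of 23 (69.6%, against 20.5% of all genes tested) and higher in 2, again mainly through T30. DLD was their peak, and PSAT1 and SHMT2, which make serine and move its carbon into folate, were dips. SHMT2 had ends 1.24-fold and 2.74-fold above the middle (edgeR adjusted p = 0.00249 and 2.25e-10), and the PSAT1 call was lost without T27 replicate 1 (adjusted p = 0.0939).

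Genes lower in the contrast without being dips were led by genes high at T30 alone. KLB, a co-receptor of FGF hormones, had means of 0.409, 0.439, 0.873 and 20.3 CPM, KY, a muscle protein, of 0.0946, 0.141, 0.247 and 5.72 CPM, GLDC, of glycine cleavage, of 2.98, 3.75, 4.47 and 79.3 CPM, and MYO3A (LOC116938706) of 25.8, 33.1, 43.5 and 687 CPM. ACOD1, an enzyme of activated macrophages, was higher in the contrast without being a peak. Its libraries were at 14.3, 20.4 and 11.2 CPM at T27, at 15.2, 31.1 and 11.7 CPM at T28, at 2.97, 5.26 and 1.8 CPM at T29 and at 0.566, 0.248 and 0.73 CPM at T30, so that it was high at T27 and T28 and low afterwards.

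Other lists are read against the 4.28% peaks and 3.77% dips among all genes tested. Cytosolic ribosomal proteins held 1 peak, RPS25, among 72. Spliceosome genes held 0 peaks and 5 dips among 82 (6.10% dips), chromatin modifiers 0 and 2 among 66, DNA repair genes 1 and 3 among 87 (3.45% dips), nucleolar genes 0 and 2 among 95, solute carriers 6 and 2 among 125 (4.8% peaks) and sterol and fatty acid genes 0 and 0 among 26. Aminoacyl tRNA synthetases held 1 dip, AARS1, among 36, with ends 1.3-fold and 1.52-fold above the middle (edgeR adjusted p = 0.000126 and 4.24e-07). Among markers of other tissues, neurons (13 tested), erythroid cells (11) and epithelium (7) held 0 peaks and 0 dips. In the contrast 5, 5 and 3 of these genes were higher (38.5%, 45.5% and 42.9%, against 24.3% of all genes tested) and 0 lower. Endothelium held 1 dip among 5 and connective tissue matrix 1 dip among 13. Leukocyte markers held 1 peak among 6, and plasma proteins 2 peaks and 1 dip among 20.

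Some loci without a symbol had larger transient changes than the named genes. LOC116941512 was at 1.9, 1.24 and 2.67 CPM at T27, at 0.032, 0.0583 and 0.0296 CPM at T28, at 0.056, 0.0839 and 0.0947 CPM at T29 and at 1.51, 1.92 and 1.42 CPM at T30. It nearly vanished in the middle, with ends 32.4-fold and 27.1-fold above it (edgeR adjusted p = 2.48e-07 and 2.22e-08). LOC116955416 had ends 7.34-fold and 5.83-fold above the middle. LOC116950743 was at 0.875, 0.31 and 0.401 CPM at T27, at 7.23, 6.26 and 7.51 CPM at T28, at 3.89, 5.26 and 5.21 CPM at T29 and at 0.566, 1.33 and 0.73 CPM at T30, 10.8-fold and 6.62-fold higher in the middle. For LOC116946959 these folds were 6.99 and 6.2. These 4 loci were picked among those whose middle and end libraries did not overlap.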

How the data were processed

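Bulk RNA was measured in 12 endostyle libraries, 3 each at T27, T28, T29 and T30, with between 28371140 and 36032488 counts assigned to genes. The deposited table holds raw counts per gene made by the authors with featureCounts 1.6.3 on the kPetMar1 assembly, per the file headers; reads were aligned with Bowtie2, per the submitters' processing notes, which also name DESeq2. Its coordinates are used as given. Settings for strand and for reads with several hits are not given in the sources used. A deposited score table of scaled values across species was not used. Symbols are those of the table, and 688 loci were named by gene ID from the RefSeq table of UKy_Petmar_22M1.pri1.0, used for names only.

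Here, genes were kept with filterByExpr (minimum count 10), scaled by TMM and fitted in edgeR 4.0.16 (R 4.3.3) by the quasi-likelihood test with 1 coefficient per stage and no replicate block (common dispersion 0.0154, 8 residual degrees of freedom). P-values were adjusted by Benjamini-Hochberg over 16526 genes at 0.05. Standard errors are of log2 differences; folds are fitted, and CPM means carry no pseudocount. The fit was tested on simulated data. Counts limit precision most below about 1 CPM.

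The genes compared and the gene lists were chosen with earlier results of these data known; 2 of the 45 lists were added after the values here were seen. Named genes were the 15 peaks and 15 dips with a symbol, a mean of at least 1 CPM and no overlap of middle and end libraries that had the largest smaller difference. To these were added up to 4 peaks or dips per list by the same order and 4 called genes per direction that were neither. Of loci without a symbol 2 per direction were added, also with a mean of at least 1 CPM and no overlap of middle and end libraries. Other members named from a list were picked after their values were seen. Alternatives were other scalings, filters, DESeq2 1.42.0, limma 3.58.1 voom, stricter definitions, a replicate block and leaving out each library. A few genes are not reported here.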

Additional observations from a re-analysis of the deposited data

Results flagged for a closer look

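In 3 of the 15 separated peaks with a gene symbol that changed most, the stages averaged as the middle themselves differed (edgeR, T29 minus T28). SVOP was higher at T29 by 0.58 log2 (adjusted p = 0.0247), with all T29 libraries above all T28 libraries. EDNRB was also higher at T29 by 0.58 log2 (adjusted p = 0.045), again without overlap. ANO7 was lower at T29, at -0.86 log2 (adjusted p = 0.0428): its T28 libraries were at 2.4, 2.27 and 2.84 CPM and its T29 libraries at 1.2, 1.15 and 1.8 CPM. Peaks named outside these 15 also differed between T28 and T29 in some cases: HPX and DRD2 were lower at T29, and PMEL and GPNMB were higher.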

How the results depend on the processing

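None of the 121 named genes changed direction under any alternative run. Stricter definitions lowered the counts of peaks and dips from 707 and 623: to 267 and 174 when T28 and T29 were each called against both ends, to 85 and 79 when both differences reached 2-fold, and to 408 and 334 when libraries did not overlap. Leaving out 1 library gave 3536 to 4085 genes higher, 2832 to 3520 lower, 508 to 723 peaks, 379 to 683 dips (fewest without T27 replicate 2), 10741 to 11636 genes between T30 and T27, 11 to 44 respiratory peaks, 4 to 5 pigment peaks and 25 to 32 centriole peaks. Between T29 and T28 it gave 1192 to 2395 genes against 2215, with 1192, 1346 and 1451 without T28 replicates 1, 2 and 3 and 1259 without T29 replicate 1. Upper quartile scaling shifted the median contrast to -0.01 log2 and the share of higher among called genes from 54.3% to 50.1%, and the dips, at 675, then outnumbered the 662 peaks (49.5% peaks among both, against 53.2%). Of 2296 alternative values for these genes, 2139 kept their call and 157, in 45 genes, lost it. Same-numbered libraries did not deviate together (correlations from -0.29 to 0.24, 4 of 18 over 0.1); with the replicate number as a block there were 3939 genes higher, 3252 lower, 665 peaks (640 of the 707 among them) and 550 dips (537 of the 623), 2007 genes between T29 and T28, 11276 between T30 and T27, and 32 respiratory, 5 pigment and 28 centriole peaks. Depth limits calls in genes under about 1 CPM.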
